A study of Mus musculus with 18 samples.

Results

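Ppara, Ppargc1a, Cpt1a, Cpt2, Acadm, Acadl, Hadha and Fgf21 are 8 genes of fatty acid oxidation and of the hormone and transcription factor that govern it together with ketone body formation. They were taken by symbol, as a fixed list, from the 24346 gene symbols of each library, and all 8 were found. RNA-seq was made from 3 organs of septic mice that did or did not breathe hydrogen gas (H2), to ask what the gas changed in each organ. All mice were male C57BL/6, 9 weeks of age, and all had cecal ligation and puncture (CLP), in which gut bacteria leak from the punctured cecum into the abdomen. The H2 groups (liver, intestine and lung, 3 libraries each) inhaled 7% H2 continuously from the end of surgery, in 1 supplied box and 1 cage, so that gas and housing cannot be told apart. The control groups (the same organs, 3 libraries each) had CLP without the gas. All tissue was collected 24 h after CLP. Unoperated and sham-operated mice are not analysed here, so every comparison is between septic animals. The labels do not say which organs came from 1 mouse, nor that libraries of a group came from separate mice. P-values therefore measure the spread between these libraries.

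Mitochondria burn fatty acids in a fixed order. Acyl-CoA is joined to carnitine by CPT1 at the outer membrane, carried across, and turned back into acyl-CoA by CPT2 on the inner membrane. It is then shortened in a repeated cycle that opens with an acyl-CoA dehydrogenase chosen by chain length and goes on through the trifunctional protein, whose alpha subunit is HADHA. In the fasting liver much of the resulting acetyl-CoA becomes ketone bodies, which other organs use as fuel. The nuclear receptor PPAR-alpha, with coactivators such as PGC-1 alpha, is the main switch of these genes in the liver, and the liver hormone FGF21 is among its targets. Loss of appetite and fasting accompany sepsis in mice.

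No member had an adjusted p under 0.05 between H2 and control mice in any organ where it was tested, nor in the mean over the organs. The largest differences were in the liver, where the H2 group averaged 1.63 times the control level for Ppara and 1.59 times for Acadm, with overlapping libraries. In the intestine Acadl was 0.795 times the control level with no overlap, beside 19.3% of all genes tested there without overlap. Of the wider pathway, 16 of 79 tested genes passed the test of the mean over the 3 organs, where 9.62% of all genes passed. Among them were Hadh, Acat1, Oxct1 and Sirt3, which rose, and Slc16a1, Pdk4 and Plin2, which fell. That test takes the 18 libraries as independent. The pathway lists were chosen with earlier results of these data known, so the share of 16 of 79 is a description. With 1 mean over the organs per treatment and number none of the 16 passed (adjusted p from 0.0708 to 0.144). Values are FPKM as deposited by the authors, that is fragments corrected for transcript length and for the mapped fragments of the library. A change is the difference in log2(FPKM + 1), H2 minus control, given ± SE from limma with n = 3 libraries per group. The added 1 makes the changes of low genes smaller. A gene is called where its p, adjusted over all tested genes, is under 0.05.

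The depth implied by the size of the smallest FPKM steps ran from 8.91 to 16.2 M fragments per library. Each organ expressed its own markers. Summed over 6 hepatocyte markers, the livers held 36891 to 43208 FPKM in the H2 group and 36524 to 63506 FPKM in the control group. Summed over 6 enterocyte markers, the intestines held 2951 to 8622 FPKM in the H2 group and 1339 to 3822 FPKM in the control group. Adipocyte markers, 8 in number, summed to 1.20 to 76.9 FPKM in H2 intestines and 97.1 to 180.0 FPKM in control intestines. In H2 intestines 1 and 2, 3 of these 8 markers were at 0, and in each of the other 4 intestines 1 was at 0. Summed over 6 alveolar type 2 markers, the lungs held 33176 to 36415 FPKM in the H2 group and 25155 to 38949 FPKM in the control group. Cardiac and skeletal muscle markers, 9 in number, summed to 182 to 478 FPKM in H2 lungs and 686 to 772 FPKM in control lungs. Neutrophil markers, 5 of 6 found, summed to 98.0 to 194 FPKM in H2 livers and 118 to 329 FPKM in control livers, to 245 to 428 FPKM in H2 intestines and 124 to 1079 FPKM in control intestines, and to 18778 to 31806 FPKM in H2 lungs and 18245 to 28577 FPKM in control lungs. In the livers the adipocyte and muscle sums were at most 5.51 FPKM. In such bulk tissue, fewer cells of a type and less RNA per cell cannot be told apart. H2 intestine 2 had the largest total, 1142966 summed FPKM, against 712858 to 850609 FPKM in the other 5 intestines.

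The regulators come first. Ppara encodes PPAR-alpha and lies at chr15:85734983-85802819 on the plus strand of mm10. In the liver it measured 12.2, 16.9 and 15.7 FPKM in H2 libraries 1, 2 and 3, against 8.0, 13.6 and 5.84 FPKM in control libraries 1, 2 and 3. Both of the highest values were H2 libraries, and control liver 2 lay above H2 liver 1. The mean was 14.9 ± 2.48 FPKM (SD, n = 3) with H2 and 9.15 ± 4.02 FPKM (SD, n = 3) in controls, a change of 0.71 ± 0.28 with a p of 0.0394 and an adjusted p of 0.22. In the intestine the values were 4.96, 4.68 and 7.17 FPKM with H2 and 5.81, 4.21 and 5.85 FPKM in controls, and the change was 0.06 ± 0.20. In the lung they were 1.15, 1.41 and 1.61 FPKM with H2 and 0.810, 1.15 and 1.72 FPKM in controls, and the change was 0.12 ± 0.19. The groups overlapped in both organs. Ppara therefore had its highest levels in the liver, overlapping those of the intestine, and every lung lay below both.

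Ppargc1a encodes PGC-1 alpha, a coactivator of PPAR-alpha and of mitochondrial genes, and lies at chr5:51454250-51567726 on the minus strand. It was low throughout. The livers held 0.565, 0.324 and 0.785 FPKM with H2 and 0.357, 0.496 and 0.323 FPKM in controls, under the mean of 1 FPKM that a test required. In the intestine it measured 1.14, 2.17 and 1.92 FPKM with H2, against 2.22, 1.49 and 3.00 FPKM in controls, a change of -0.23 ± 0.24 with an adjusted p of 0.675. In the lung it measured 1.20, 1.42 and 1.58 FPKM with H2, against 1.26, 1.81 and 2.55 FPKM in controls, a change of -0.24 ± 0.19 with an adjusted p of 0.446. The highest of the 6 libraries was a control in both organs, and the groups overlapped. Ppargc1a is also strongly expressed in heart and brown fat, and the muscle and adipocyte sums of control lungs stand above; their part in its lung values was not tested.

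Fgf21 encodes a hormone that the liver secretes in fasting and stress and lies at chr7:45613886-45615490 on the minus strand. Livers held 4.13, 6.23 and 6.73 FPKM with H2 and 10.5, 4.76 and 4.96 FPKM in controls. Control liver 1 was the highest of the 6, and the other 5 lay between 4.13 and 6.73 FPKM. The change was -0.15 ± 0.30 with an adjusted p of 0.782. Outside the liver it was at or near 0, with 3 of 6 intestines and 3 of 6 lungs listed at 0 and a highest value of 0.266 FPKM in H2 lung 1, so that it was not tested there.

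Cells sense FGF21 through an FGF receptor paired with beta-klotho, the product of Klb. Klb measured 6.09, 5.74 and 6.25 FPKM in H2 livers, against 0.877, 2.73 and 0.727 FPKM in control livers. All H2 livers lay above all controls, at a change of 1.61 ± 0.28 with an adjusted p of 0.13. In the intestine and lung every library was under 0.5 FPKM. There the added 1 holds its change near 0, so that tests over the organs carry the liver change alone. The partner receptor Fgfr1 measured 1.52, 0.876 and 1.77 FPKM in H2 intestines, against 6.37, 2.48 and 3.20 FPKM in control intestines. The mean over the organs called Klb, which entered that fit through the liver, at an adjusted p of 0.0338, and no longer with a pseudocount of 0.1 (0.223). Over the organs Fgfr1 fell by 0.72 ± 0.17 on the log2 scale (adjusted p = 0.0271).

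**Figure D1:**
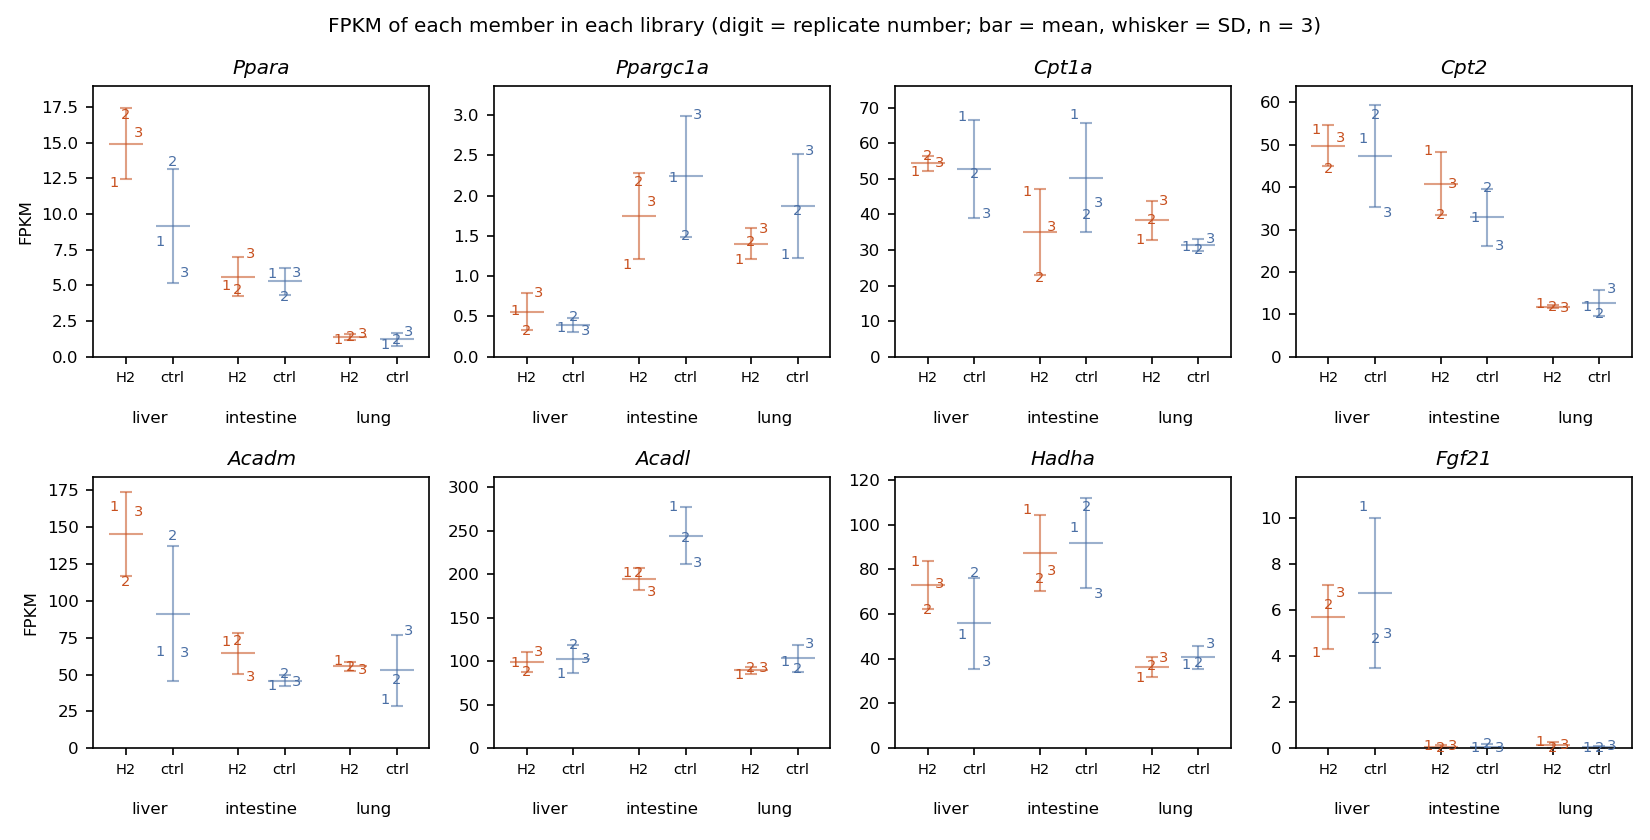
FPKM of the 8 genes in each of the 18 libraries, by organ, with H2 left of control; the digit is the library number, the bar the mean and the whisker the SD (n = 3). Control liver 2 stands above the other 2 control livers for Ppara, Ppargc1a, Cpt2, Acadm, Acadl and Hadha, and Fgf21 is at most 0.266 FPKM outside the liver.

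The carnitine shuttle follows. Cpt1a encodes the liver form of CPT1, the entry step that malonyl-CoA blocks, and lies at chr19:3322334-3385733 on the plus strand. The start windows of 2 of the 8 genes, Cpt1a and Acadm, held the 6 letters of the PPAR half-site, AGGTCA, here read on the opposite strand as TGACCT, and both are printed for that reason. The window is RefSeq's and lies inside the gene span above, which is GENCODE's, so the starts of these sources differ. It is chr19:3323051-3323350 on the plus strand of GRCm38.p6, from 250 bases before RefSeq's start to 50 after it. The match is in capitals, with its first base at -94:
Cpt1a: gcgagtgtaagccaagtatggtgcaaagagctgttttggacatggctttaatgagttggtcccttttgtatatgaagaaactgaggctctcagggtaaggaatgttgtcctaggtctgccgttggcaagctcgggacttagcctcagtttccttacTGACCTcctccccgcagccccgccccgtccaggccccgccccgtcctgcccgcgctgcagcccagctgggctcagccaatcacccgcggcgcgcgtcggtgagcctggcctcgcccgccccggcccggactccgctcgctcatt
The letters AGGTCA were searched on both strands and occur in 16.3% of 32851 such windows, so a match is a description and no binding site. The direct repeat of the half-site with 1 base between (DR1), searched on both strands, occurs in 0.0396% of the windows and in none of the 8.

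Cpt1a in the liver measured 52.0, 56.4 and 54.5 FPKM with H2, against 67.4, 51.2 and 40.0 FPKM in controls. The H2 libraries lay within the control range, and the change was 0.07 ± 0.19 with an adjusted p of 0.855. In the intestine it measured 46.3, 22.2 and 36.5 FPKM with H2, against 67.9, 39.9 and 43.2 FPKM in controls. The 2 lowest values were H2 libraries and the groups overlapped, at -0.53 ± 0.31 (adjusted p = 0.482). In the lung it measured 32.7, 38.4 and 43.8 FPKM with H2, against 30.7, 30.1 and 33.2 FPKM in controls. Only H2 lung 1 lay inside the control range there, and the change was 0.27 ± 0.13 with a p of 0.0736 and an adjusted p of 0.249. The difference of the change, intestine minus lung, was -0.81 ± 0.35 with a p of 0.0345 and an adjusted p of 0.214, the smallest p of the 8 genes in any test between organs. Cpt1a levels of the 3 organs overlapped.

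Cpt2 encodes the inner-membrane transferase and lies at chr4:107903981-107923610 on the minus strand. Livers held 53.5, 44.3 and 51.5 FPKM with H2 and 51.3, 57.0 and 34.0 FPKM in controls, a change of 0.10 ± 0.21. Intestines held 48.4, 33.4 and 40.7 FPKM with H2 and 32.8, 39.7 and 26.2 FPKM in controls, a change of 0.31 ± 0.22. All H2 intestines lay above the 2 lowest controls and 1 lay below the highest. Lungs held 12.4, 11.6 and 11.5 FPKM with H2 and 11.8, 10.01 and 15.9 FPKM in controls, a change of -0.06 ± 0.17. The adjusted p was 0.805 for the liver, 0.55 for the intestine and 0.842 for the lung. Every lung was below every liver and intestine for Cpt2, while liver and intestine overlapped.

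The cycle itself opens with the dehydrogenases. Acadm encodes MCAD, which takes medium chains, and lies at chr3:153922357-153944632 on the minus strand. It held the other match to the half-site. The RefSeq window is chr3:153944594-153944893 on the minus strand of GRCm38.p6, with the match in capitals and its first base at -249:
Acadm: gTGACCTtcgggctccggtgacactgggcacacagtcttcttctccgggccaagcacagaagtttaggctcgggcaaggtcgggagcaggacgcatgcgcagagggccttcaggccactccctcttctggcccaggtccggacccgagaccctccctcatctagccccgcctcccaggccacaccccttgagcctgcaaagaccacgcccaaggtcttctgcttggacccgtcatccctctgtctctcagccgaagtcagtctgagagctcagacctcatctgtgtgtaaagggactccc
Livers held 164.1, 112.8 and 160.1 FPKM of Acadm with H2, against 65.3, 144.1 and 64.8 FPKM in controls. Control liver 2 stood far above the other 2 controls and above H2 liver 2. The means were 146 ± 28.5 FPKM (SD, n = 3) with H2 and 91.4 ± 45.6 FPKM (SD, n = 3) in controls, a change of 0.75 ± 0.33 with a p of 0.0568 and an adjusted p of 0.249.

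In the intestine Acadm measured 72.2, 72.8 and 48.4 FPKM with H2, against 42.5, 50.3 and 45.0 FPKM in controls. H2 intestines 1 and 2 lay above all controls and H2 intestine 3 lay among them, at 0.46 ± 0.21 (adjusted p = 0.414). In the lung it measured 59.0, 55.1 and 53.0 FPKM with H2, against 32.7, 46.4 and 79.3 FPKM in controls. The H2 lungs lay close together between the second and the highest control, at 0.17 ± 0.29 (adjusted p = 0.734). In the mean over the 3 organs the change was 0.46 ± 0.18 with a p of 0.0214 and an adjusted p of 0.102, the smallest of the 8 genes in that test.

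Acadl encodes LCAD, the dehydrogenase for long chains in mice, and lies at chr1:66830839-66863277 on the minus strand. It was the most abundant of the 8 in the intestine, at 201.7, 200.9 and 179.4 FPKM with H2, against 277.7, 242.0 and 212.4 FPKM in controls. Every H2 intestine lay below every control, the only one of the comparisons of the 8 genes within an organ without overlap. It was 1 of the 7 members tested there, beside 19.3% of the 11910 genes tested in the intestine whose groups did not overlap and 8.75% with every H2 library below. In the liver and the lung 0 of 7 members were free of overlap, beside 25.3% and 30% of all genes tested in those organs. The means were 194 ± 12.6 FPKM (SD, n = 3) with H2 and 244 ± 32.7 FPKM (SD, n = 3) in controls, a change of -0.32 ± 0.19 with a p of 0.122 and an adjusted p of 0.479. The adipocyte sums of the intestine given above were also lower in every H2 library; their part in the Acadl values was not tested.

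Livers held 98.5, 87.2 and 110.4 FPKM of Acadl with H2, against 85.6, 118.4 and 102.8 FPKM in controls, a change of -0.04 ± 0.16. Lungs held 84.6, 91.7 and 92.2 FPKM with H2, against 98.7, 90.9 and 120.2 FPKM in controls, a change of -0.20 ± 0.13. The groups overlapped in both organs, and the adjusted p were 0.889 and 0.369. Acadl levels in the intestine lay above those of every liver and lung, which overlapped each other. In the mean over the 3 organs its change was -0.19 ± 0.08 with a p of 0.0413 and an adjusted p of 0.147, so that both dehydrogenases had unadjusted p under 0.05 with opposite signs.

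Hadha encodes the alpha subunit of the trifunctional protein, which carries out the hydratase and hydroxyacyl-CoA dehydrogenase steps for long chains, and lies at chr5:30118304-30155162 on the minus strand. Hadhb, for the beta subunit with the thiolase, starts 85 bases away at chr5:30155248-30184593 on the plus strand, so that the pair stand head to head. The start window of Hadha is printed to show how much of it is common to both genes. It is chr5:30154931-30155230 on the minus strand of GRCm38.p6, from RefSeq, with the 228 bases that the window of Hadhb also holds in capitals:
Hadha: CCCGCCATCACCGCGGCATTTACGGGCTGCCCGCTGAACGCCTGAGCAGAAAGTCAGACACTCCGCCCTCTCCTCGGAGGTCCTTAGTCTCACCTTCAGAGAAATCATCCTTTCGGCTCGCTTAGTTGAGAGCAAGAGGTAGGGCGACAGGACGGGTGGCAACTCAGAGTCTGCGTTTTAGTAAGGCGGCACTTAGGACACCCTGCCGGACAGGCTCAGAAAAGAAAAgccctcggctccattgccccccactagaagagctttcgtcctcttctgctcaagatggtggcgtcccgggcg
Livers held 83.2, 62.0 and 73.6 FPKM of Hadha with H2, against 50.6, 78.3 and 38.6 FPKM in controls. Control liver 2 lay between H2 livers 1 and 3 and the other 2 controls lay below all H2 livers, at 0.43 ± 0.26 (adjusted p = 0.361). Intestines held 106.6, 75.6 and 79.3 FPKM with H2, against 98.3, 108.1 and 69.1 FPKM in controls, a change of -0.07 ± 0.24. Lungs held 31.4, 36.9 and 40.2 FPKM with H2, against 37.2, 38.3 and 46.6 FPKM in controls, a change of -0.17 ± 0.14. Both pairs overlapped, with adjusted p of 0.918 and 0.465. With the organ means removed, Hadha and Hadhb had a Pearson r of 0.768 over the 18 libraries, 0.950 over the 6 livers, 0.365 over the 6 intestines and 0.679 over the 6 lungs. These points share treatment groups, depth and tissue makeup.

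**Figure D2:**
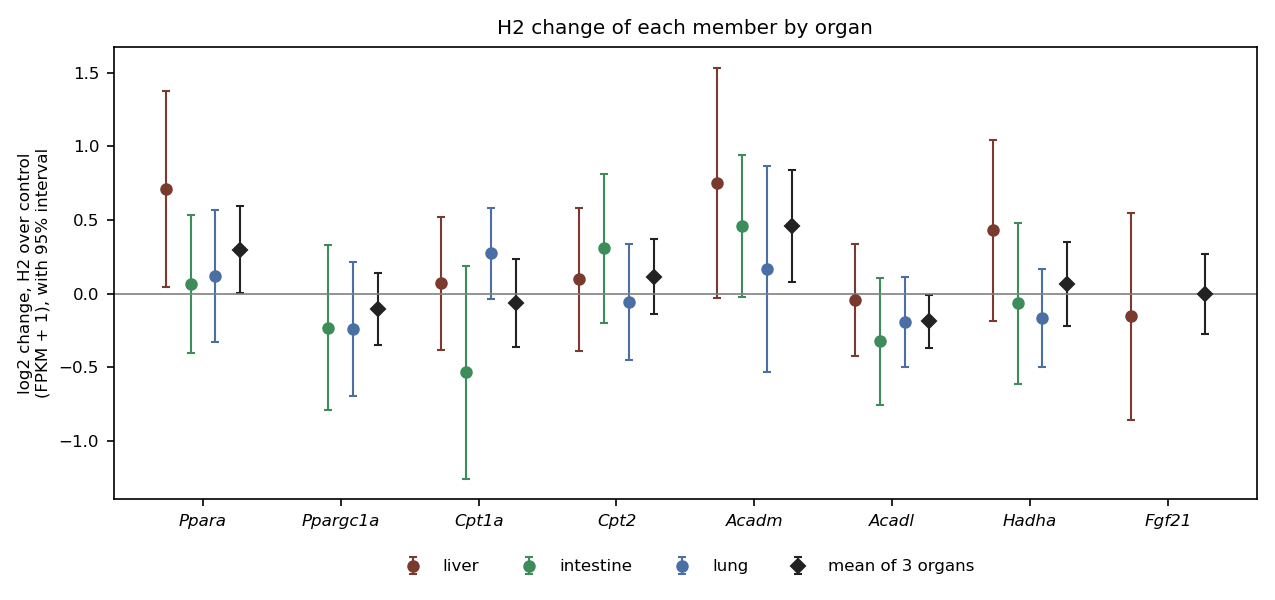
Difference in log2(FPKM + 1), H2 minus control, of each gene with its 95% interval in the liver, intestine, lung and the mean of the 3, where the gene was tested. Among single organs the interval is widest for Acadm in the liver, at 0.75, and the intervals of Ppara, Acadm and Acadl in the mean do not reach 0 before adjustment.

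Counted together, 0 of the 7 members tested in the liver were called, where 0.0199% of 10041 genes were called, and the unadjusted p was under 0.05 for 1 of them against 21% of all genes. In the intestine 0 of 7 were called, where 0.0084% of genes were called, and 0 of 7 had an unadjusted p under 0.05 against 12.5%. In the lung 0 of 7 were called, where 0.00745% of 13424 genes were called, and 0 of 7 had an unadjusted p under 0.05 against 23.1%. For the mean over the organs 0 of 8 were called, where 9.62% of 13362 genes were called, and 3 of 8 had an unadjusted p under 0.05 (Ppara and Acadm higher, Acadl lower) against 30.7%. These shares of members were below those of all genes in each organ and close to it in the mean over the organs. The members' median change was 0.10 in the liver, beside -0.02 over all genes. It was -0.07 in the intestine, beside 0.02, and -0.06 in the lung, beside -0.004. None of the 8 was called in a difference between organs, where 0.217% (liver minus intestine), 0.239% (liver minus lung) and 1.24% (intestine minus lung) of genes were called. An unadjusted p under 0.05 was found for 0 of 8 (15.5% of genes), 0 of 8 (12.3%) and 1 of 8 (19.7%) in these 3 tests.

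A single control library decided the calls in the liver. Control liver 2 was the highest of the 3 controls for 5 of the 7 members tested. Without it 3 of the 7 passed, Ppara at 1.01 ± 0.18 (adjusted p = 0.0102), Acadm at 1.13 ± 0.18 (adjusted p = 0.00699) and Hadha at 0.70 ± 0.17 (adjusted p = 0.0277). Leaving out the highest control of a gene raises its H2 change. Without control liver 2 the calls over all genes rose to 2834 of 10057 tested (28.2%), against 2 with all 6 livers. The gain of 3 of 7 stands beside that share. For the mean over the organs, Ppara (adjusted p = 0.0281) and Acadm (adjusted p = 0.0167) passed without control liver 2, and Acadm (adjusted p = 0.0236) passed without control lung 3. Calls over all genes were then 2632 without control liver 2 and 2814 without control lung 3. With all 18 libraries they were 1285 of 13362 (9.62%). Control lung 3 was the highest control for all 7 members tested in the lung and had 230 FPKM of summed adipocyte markers, against 68.9 and 80.9 FPKM in the other 2 control lungs. Leaving it out gave 3295 calls among 13424 genes tested in the lung (24.5%), against 1 with all 6 libraries. Of the 7 members, 0 were among these calls. Acadm was then at 0.50 ± 0.16 (adjusted p = 0.0663).

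Beyond the 8 genes, 83 others were listed in 7 pathway groups, and none was called in a single organ fitted alone. The groups were chosen with earlier results of these data known, so counts within them are a description. With all 18 libraries in 1 fit, only the 3 genes per group with the smallest p in each organ were looked at. Of these, 5 were called, at adjusted p of 0.00251 (Klb, liver), 0.0296 (Hadh, liver), 0.0269 (Acsl4, intestine), 0.0465 (Scp2, intestine) and 0.011 (Slc16a1, lung). The genes were picked by p from the same libraries, so these calls are no independent support. Calls over all 13362 genes of that fit were 279 (liver), 225 (intestine) and 535 (lung). In the liver 55 of 76 tested were higher with H2 and 21 were lower, with a median change of 0.28 beside -0.02 over all genes. Of 19 tested genes of mitochondrial fatty acid oxidation in the liver, 18 were higher and 1 lower, with a median of 0.34 and 0 called. Without control liver 2, 18 of the 19 were higher, with a median of 0.51, and 9 were called, where 28.2% of all genes were called. Without control liver 3 the median was 0.21, and none was called in the 5 fits that left out another liver than control liver 2. In the intestine 14 of 19 genes of this group were higher and 5 lower (median 0.20), and in the lung 6 of 20 were higher and 14 lower (median -0.13). Without control lung 3, 10 of the 20 were higher and 10 lower in the lung, with a median of 0.0026, 2 called higher and 1 lower, where 24.5% of all genes were called. Over all 7 groups, 33 of 73 intestinal genes were higher and 40 lower (median -0.05), and in the lung likewise 33 of 73 were higher and 40 lower (median -0.05). Averaged over the 3 organs, 52 of 79 were higher and 27 lower. Of the 79, 9 were called higher and 7 called lower, beside 4.39% of all genes called higher and 5.23% called lower. Klb is among the 9 through its liver values alone.

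Among the enzymes of the cycle, Hadh, the hydroxyacyl-CoA dehydrogenase for short and medium chains, rose by 0.85 ± 0.17 in the mean over the organs (adjusted p = 0.0145). In the liver it measured 82.9, 85.7 and 91.4 FPKM with H2, against 27.8, 57.0 and 22.3 FPKM in controls, and every H2 liver lay above every control. In the intestine it measured 142, 256 and 220 FPKM with H2, against 88.2, 140 and 123 FPKM in controls, again without overlap. It kept its call in all 18 fits that left out 1 library. Eci1, an isomerase for unsaturated chains, rose by 0.48 ± 0.14 (adjusted p = 0.0488) and kept its call in 4 of those fits. Acsl4, an acyl-CoA synthetase that prefers arachidonate, fell by 0.46 ± 0.12 on the log2 scale (adjusted p = 0.0327) and kept its call in 5. Acsl1, the main hepatic acyl-CoA synthetase, was not called, with 64.4, 62.6 and 78.9 FPKM in H2 livers against 21.7, 53.1 and 14.6 FPKM in control livers (1.37 ± 0.42, adjusted p = 0.172).

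Of the genes of ketone body formation, export and use, Acat1, the mitochondrial thiolase at both ends of the pathway, measured 161, 173 and 180 FPKM in H2 livers, against 67.4, 148 and 82.0 FPKM in control livers. It rose by 0.47 ± 0.13 in the mean over the organs (adjusted p = 0.041). Oxct1, which lets tissues other than the liver use ketone bodies, rose by 0.32 ± 0.07 (adjusted p = 0.0224), with 46.4, 45.8 and 38.5 FPKM in H2 intestines against 28.9, 32.5 and 29.4 FPKM in control intestines. Slc16a1, the monocarboxylate carrier MCT1, fell by 0.64 ± 0.12 on the log2 scale (adjusted p = 0.011). It measured 40.4, 23.5 and 32.2 FPKM in H2 livers, against 56.4, 46.5 and 57.1 FPKM in control livers, and 12.3, 11.3 and 8.89 FPKM in H2 lungs, against 29.4, 24.7 and 19.3 FPKM in control lungs. In the intestine its groups overlapped, at 33.9, 32.5 and 27.6 FPKM with H2, against 35.7, 27.1 and 37.1 FPKM in controls (-0.08 ± 0.19), so that the mean is that of lower values in 2 organs. Slc16a1 kept its call in all 18 fits with 1 library left out. Oxct1 kept its call in 17, all but that without H2 lung 2 (adjusted p = 0.0508), and Acat1 in 5.

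**Figure D3:**
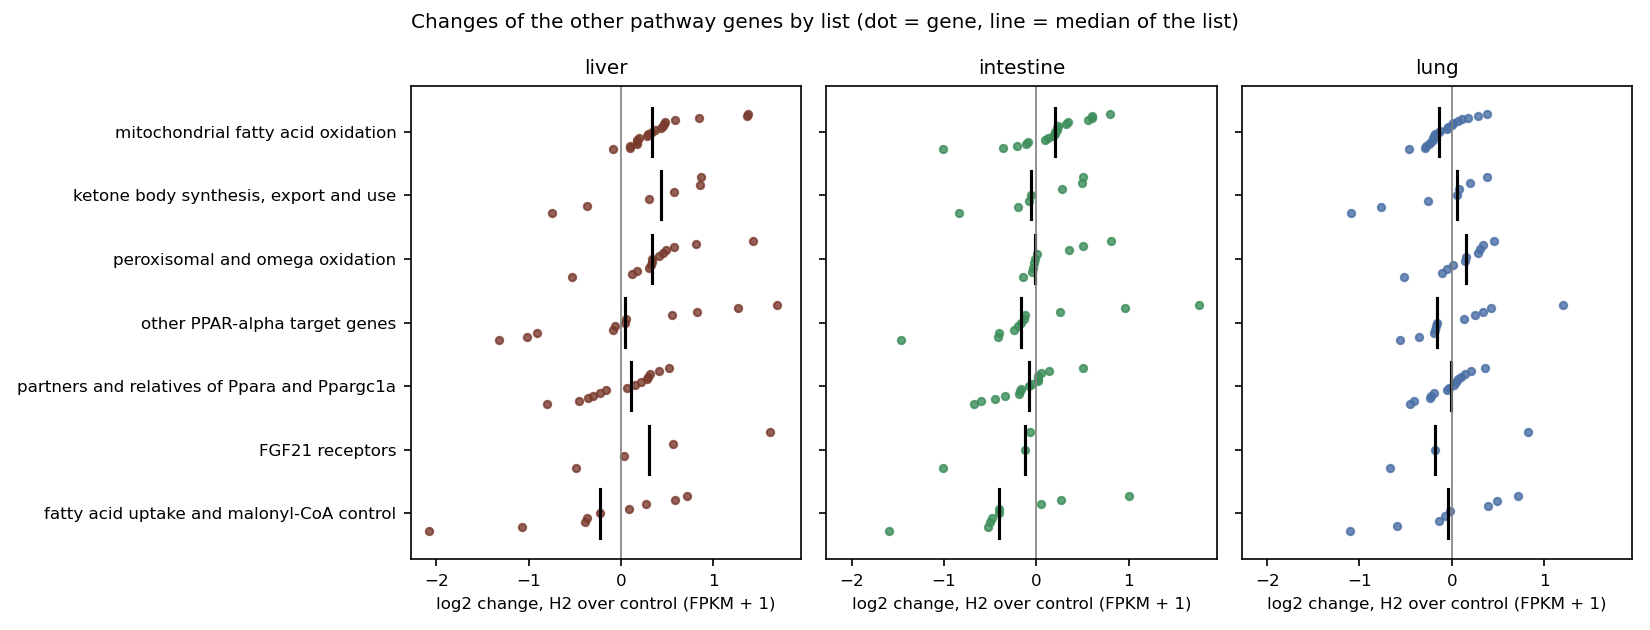
Difference in log2(FPKM + 1), H2 minus control, in each organ for every tested gene of the 7 pathway groups, 1 dot per gene, with a line at the group's median. In the liver 18 of 19 genes of mitochondrial fatty acid oxidation lie right of 0, and in the lung 14 of 20 lie left of 0.

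In the peroxisome, which shortens very long chains, Scp2 rose by 0.49 ± 0.11 (adjusted p = 0.0222). Scp2, whose product includes a peroxisomal thiolase, measured 279, 422 and 237 FPKM in H2 intestines, against 154, 202 and 165 FPKM in control intestines. It kept its call in 17 of 18 fits, all but that without control liver 3 (adjusted p = 0.0515).

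Of the other targets of PPAR-alpha, 5 of 11 tested were higher and 6 lower in the mean over the organs, with 1 called higher and 2 called lower. Fabp1, the fatty acid binding protein of liver and gut, rose by 1.55 ± 0.41 (adjusted p = 0.0334). It measured 1172, 1566 and 1442 FPKM in H2 intestines, against 300, 982 and 230 FPKM in control intestines, where the enterocyte sums above also ranged higher with H2, with overlap. Hepatocyte-list markers summed to 7352 to 15626 FPKM in H2 intestines and 3156 to 6126 FPKM in control intestines, and alveolar type 2 markers to 141 to 193 FPKM in H2 intestines and 73.0 to 126 FPKM in control intestines. In the intestine 3 of the 6 hepatocyte-list markers and 2 of the 6 alveolar type 2 markers averaged at least 1 FPKM. The sums do not tell which cells expressed these markers. The part of cell makeup in the Fabp1 values was not tested. Pdk4, a kinase that spares glucose, fell by 1.05 ± 0.29 on the log2 scale (adjusted p = 0.0404), with 3.60, 1.76 and 4.13 FPKM in H2 intestines against 12.9, 12.1 and 6.51 FPKM in control intestines. Plin2, the lipid droplet coat, fell by 0.63 ± 0.17 (adjusted p = 0.0342), with 360, 273 and 326 FPKM in H2 livers against 914, 453 and 513 FPKM in control livers. Of 18 fits with 1 library left out, Fabp1 kept its call in 6, Pdk4 in 8 and Plin2 in 7.

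Of the partners and relatives of Ppara and Ppargc1a, the mitochondrial deacetylase Sirt3 rose by 0.46 ± 0.10 (adjusted p = 0.0199). It measured 25.0, 23.9 and 26.5 FPKM in H2 livers, against 16.04, 21.3 and 14.9 FPKM in control livers, without overlap, and kept its call in all 18 fits. Of the genes of fatty acid uptake, Fabp4, which adipocytes and endothelium express, fell by 1.26 ± 0.34 (adjusted p = 0.0352). It measured 42.3, 46.7 and 138 FPKM in H2 intestines, against 218, 201 and 178 FPKM in control intestines, in the organ where every adipocyte sum was lower with H2. Its change was -1.595 in the intestine and -1.075 in the liver, where the adipocyte sums were at most 1.63 FPKM. The part of adipocytes in the fall of Fabp4 was not tested. Fgfr1 kept its call in 10 of the 18 fits, Fabp4 in 7 and Klb in 6.

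Genes whose profile was most like each member were ranked by Pearson r over the 18 libraries on log2(FPKM + 1), after each organ mean was taken away, among 12609 genes. The points share treatment, depth and tissue makeup, so r describes these libraries. Acadm was closest to Decr1 (r = 0.929), a mitochondrial reductase for unsaturated chains, then to Ech1 (0.924) and Pon3 (0.908). Over the 6 libraries of a single organ, the r of Acadm and Decr1 was 0.978 (liver), 0.879 (intestine) and 0.980 (lung). Hadha was closest to Slc25a20 (0.882), the carrier of acylcarnitines across the inner membrane, to Hsd17b4 (0.881), a peroxisomal enzyme, and to Caprin1 (0.863). Ppara was closest to Pdp2 (0.898), Slc22a23 (0.879) and Sema4g (0.879). The highest r was 0.873 for Cpt1a (Lama4, a laminin chain), 0.846 for Cpt2 (Ahsa1), 0.745 for Acadl (Sh3tc1), 0.772 for Ppargc1a (Rras2) and 0.857 for Fgf21 (Serpina6). Between members the highest r were those of Cpt2 and Hadha (0.710), Acadm and Hadha (0.652) and Ppara and Acadm (0.611). The lowest was that of Acadl and Fgf21 (-0.342). Outside the liver Fgf21 was at most 0.266 FPKM, so its r values rest mainly on the 6 livers.

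**Figure D4:**
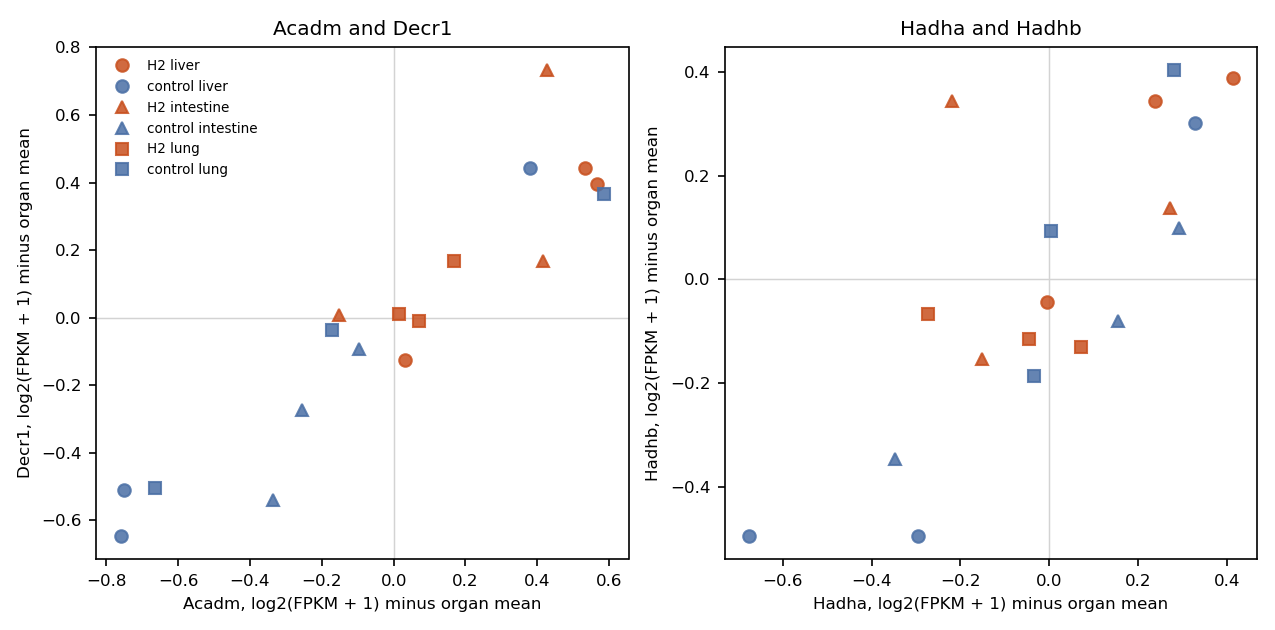
Log2(FPKM + 1) with the organ mean removed, for Acadm against Decr1 and for Hadha against Hadhb, 1 point per library, with organ and treatment marked. The Acadm and Decr1 points lie close to a line (r = 0.929), and the Hadha and Hadhb points lie more loosely (r = 0.768).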

How the data were processed

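Per the labels, RNA was taken with the miRNeasy Micro Kit and sequenced as TruSeq stranded mRNA libraries. The submitters' processing notes name Cufflinks 2.2.1, SAMtools 0.1.19, Bowtie2 2.2.3 and TopHat2 2.0.13, with build mm10. Annotation, options and strand setting are not given in the sources used here. FPKM, made and deposited by the authors, fill 1 column per library. In the file of control lung 2, 1 further column equals control lung 3 and was not used. Groups follow the titles; descriptions of H2 replicates 2 and 3 number the gas differently.

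Each organ was fitted with limma 3.58.1 (R 4.3.3, trend, two-sided) on log2(FPKM + 1), over every gene averaging at least 1 FPKM, adjusted by Benjamini-Hochberg and called under 0.05. The mean over organs and the differences used all 18 libraries, 1 mean per group. An exact permutation test of 3 against 3 cannot go under 0.1. Fits were tested on simulated data with noise drawn separately for each gene and library, so that shared mice were not simulated. The changed genes were drawn from those with a mean log2(FPKM + 1) over 2 in every organ, and moved alike in all 3. Ppara, Ppargc1a, Fgf21 and Klb fall short of that in 1 organ or more. Changes under 1 were not simulated, so the shares below do not cover these genes or such changes. Of 200 genes changed by 1 in log2, 65.5% (liver), 36.5% (intestine), 75.5% (lung) and 97% (mean over organs) were recovered. False genes made up 4.38%, 6.41%, 7.93% and 9.77% of the calls in the same order. With a change of 2, 13.5% of the calls in the mean were false. Members and lists were chosen with earlier results of these data known. Named are all 8 members, the called genes of the lists and otherwise up to 3 per list with the smallest p; some genes under this rule are not reported here. Positions are GENCODE vM21 on mm10, and start windows are RefSeq's; all 8 matched. Hadha overlaps Garem2 on the other strand by 75 bases, and the Acadl gene holds a processed pseudogene of 495 bases. FPKM are not counts, so the depth, estimated from FPKM times transcript length over genes with 1 transcript, gives no interval. Alternatives were a pseudocount of 0.1, no filter, median-of-ratios scaling, a replicate block, 1 fit of all libraries, 1 mean per treatment and number, and each library left out.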

Additional observations from a re-analysis of the deposited data

Results flagged for a closer look

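Among the 8 members and the pathway groups, Klb had the only H2 changes called different between organs. The difference, liver minus intestine, was 1.69 ± 0.31 on the log2(FPKM + 1) scale (adjusted p = 0.0374), and liver minus lung it was 1.72 ± 0.31 (adjusted p = 0.0355). Klb passed the filter through the liver alone, since every intestine and lung was under 0.5 FPKM, so that these differences restate a liver change that was not called by itself (adjusted p = 0.13). Neither was called with a pseudocount of 0.1 (0.129 and 0.174).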

How the results depend on the processing

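Across 943 settings run over 53 results of the 8 members, 888 kept direction and side of the threshold, 49 changed sign (47 of them with 1 library left out) and 6 passed the threshold, all with 1 library left out. No reads per gene are given, so depth sets no interval here, and Fgf21 outside the liver and Ppargc1a in the liver were too low to test. Each organ rests on 3 against 3 libraries.

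Same-numbered H2 and control libraries of an organ correlated at -0.115 to 0.325. Of 9 H2 libraries, 3 correlated best with the control of their own number. With 3 libraries per group these values cannot show whether the numbers pair the libraries. Between organs of 1 treatment, same-numbered libraries correlated at -0.182 to 0.212 and others at -0.237 to 0.266. In 8 of 18 such comparisons a library correlated best with its own number. Between control livers and control intestines, same-numbered libraries correlated at 0.185, 0.212 and 0.0978, and others at most at 0.000888. Control lung 3 correlated best with control liver 2 (0.266) and control intestine 2 (0.246). Whether a number marks 1 mouse is not stated, and the fit of all 18 libraries takes them as independent. A replicate block pairs same-numbered H2 and control libraries within an organ, and does not address organs of 1 mouse. With it, calls over all genes were 0 in the liver (2 without it), 3 in the intestine (1) and 680 in the mean over organs (1285). They were 7 for liver minus lung (32) and 86 for intestine minus lung (166). The block changed no call of a member. Of the 16 pathway genes called in the mean, 11 no longer passed, and nor did the 2 Klb differences (adjusted p = 0.087 and 0.0958).

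With a pseudocount of 0.1, calls were 0 in the liver, 15 for liver minus intestine (29 with 1), 15 for liver minus lung and 29 for intestine minus lung. Without a filter they were 0 in the liver, 2 in the lung (1 with it), 61 for liver minus intestine, 120 for liver minus lung and 402 for intestine minus lung. Median-of-ratios scaling gave 46 for intestine minus lung and turned the sign of Fgf21 in the mean (-0.0074) and of Ppargc1a for intestine minus lung (-0.043). With all 18 libraries in 1 fit, the liver had 279 calls, the intestine 225 and the lung 535, and with 1 mean per treatment and number the mean over organs had 16. In the mean over organs Eci1 (adjusted p = 0.0514) and Klb (0.223) no longer passed with a pseudocount of 0.1, and without a filter Eci1, Acat1, Pdk4, Fabp1 and Fabp4 did not (0.0502 to 0.0655). The cause of these shifts was not tested.

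With each library left out in turn, calls over all genes ran from 0 to 2834 (liver), 2 to 28 (intestine), 1 to 3295 (lung) and 312 to 2814 (mean over organs). For the differences they ran from 10 to 779 (liver minus intestine), 2 to 588 (liver minus lung) and 18 to 1035 (intestine minus lung). Between 0 and 3 members were called for the liver, and between 0 and 2 for the mean. Changes that crossed 0, in log2, ran from -0.11 to 0.26 (Cpt1a), -0.12 to 0.24 (Cpt2), -0.17 to 0.066 (Acadl) and -0.33 to 0.17 (Fgf21) in the liver. In the intestine they ran from -0.10 to 0.16 (Ppara), -0.26 to 0.064 (Hadha) and -0.13 to 0.021 (Fgfr3). In the lung they ran from -0.021 to 0.27 (Ppara), -0.20 to 0.11 (Cpt2), -0.12 to 0.50 (Acadm) and -0.35 to 0.013 (Fgfr2). In the mean over organs they ran from -0.14 to 0.032 (Cpt1a), -0.011 to 0.16 (Hadha) and -0.058 to 0.11 (Fgf21). Liver minus intestine, Fgf21 ran from -0.34 to 0.15. Liver minus lung, Cpt2 ran from -0.064 to 0.30 and Fgf21 from -0.47 to 0.031. Intestine minus lung, Ppara ran from -0.22 to 0.084, Ppargc1a from -0.17 to 0.18, Acadm from -0.044 to 0.58 and Hadha from -0.090 to 0.23.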

Other observations

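The ratio of Acadm to Acadl was looked at after their values were seen and has no test. In the liver it was 1.67, 1.29 and 1.45 in H2 libraries, against 0.762, 1.22 and 0.631 in control libraries. In the intestine it was 0.358, 0.363 and 0.270 in H2 libraries, against 0.153, 0.208 and 0.212 in control libraries. Neither pair overlapped. In the lung it was 0.698, 0.601 and 0.575 in H2 libraries, against 0.331, 0.511 and 0.660 in control libraries, and the groups overlapped. Of the 21 ratios between the 7 members tested in an organ, 5 did not overlap in each organ. Ratios between other genes were not counted, so this count has no background and says nothing particular about these members.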
